A study of Mus musculus with 280 samples.

Results

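The 143 genes described here were abundant in mouse 2-cell embryos and nearly gone by the 4-cell stage. They were chosen by measured levels in embryos of control sires: a mean of at least 100 TPM at the 2-cell stage and means of at most 2% of that level at the 4-cell, morula and blastocyst stages. TPM, a length-corrected transcript level, is a share of an embryo's RNA, so destruction of a transcript and its dilution by newly made RNA cannot be told apart. Of 11076 genes in the table, 1657 had a mean of at least 100 TPM in control 2-cell embryos and 191 met every level criterion. In all, 48 of these 191 were left out by symbol (predicted Gm genes, Zfp and Slc genes, Zscan4, Tdpoz, Tcstv, Usp17, Obox and Zp genes, AF067063 and a set of oocyte genes such as Btg4 and Bmp15), which leaves 143. The control values of these stages are therefore a description, and the embryos of low protein sires, the 8-cell embryos, the late blastocysts and the differences among 2-cell embryos are measurements on which the choice did not rest.

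Each sample is a single whole embryo of the inbred FVB strain, made by in vitro fertilization of oocytes from females on control diet and grown in KSOM, a culture medium for preimplantation embryos. The sperm came from males on low protein (LP) diet or on control (C) diet, 10 sires of each kind. There were 39 low protein and 41 control 2-cell embryos, 40 and 42 4-cell embryos, 2 and 2 8-cell embryos, 35 and 38 morulae, 22 and 14 blastocysts, and 3 and 2 late blastocysts. All share the strain and the diet of the oocyte donors, and the father's diet is the planned difference between the groups at each stage. Each sire had only 1 diet, so the groups also differ in their sires. Plates were not shared evenly: plate 6, as numbered in the sample titles, held low protein but no control blastocysts. The sires gave unequal numbers: 1 low protein sire fathered 56 of the 141 low protein embryos, and 1 control sire fathered 52 of the 139 control embryos. Embryos of 1 sire share that father and are not independent of each other. RNA was sequenced with a single-cell Nextera library kit, depth is unknown because only TPM values were used, and between 3626 and 10204 genes per embryo had a TPM of at least 1.

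A fully grown oocyte makes almost no new RNA. The first divisions run on stored maternal transcripts, many of them held with short poly(A) tails and translated on demand during meiotic maturation. In the mouse these stores are destroyed in waves, first during maturation and then when the embryo's own genome becomes active at the 2-cell stage, with deadenylation by the CCR4-NOT complex as a main step. Genes known for oocyte functions (meiotic arrest, egg surface, germline transcription factors, oocyte-specific gene clusters) are typical of this class.

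Among the 143 genes are 6 of the 7 Tcl1 family genes in the table, 7 Nlrp genes, 5 TRIM or RFPL genes, the PRAME-like genes Oog2, Oog3, Oog4, Pramef6, C87977, C87414 and C87499 (the last 3 named Pramel29, Pramel34 and Pramel32 in RefSeq), the oocyte transcription factors Nobox and Lhx8, the translation regulators Dazl, Pabpc1l and Eif4e1b, the meiotic kinase Wee2 and the sperm receptor Izumo1r. Positions on GRCm38.p6 (mm10) were found in RefSeq for 140 of them, 129 by symbol and 11 by an older symbol. Of these 140, 128 are protein-coding, 11 are long non-coding RNAs and 1 is a transcribed pseudogene. A total of 34 lie in 12 groups in which neighbouring genes of the 143 lie at most 1000000 bases apart. How many genes of the table in general form such groups was not counted. This distance also joins genes of different families, such as Pkd2l2 and Reep2, which are 2 of the 11 genes of the table in their stretch. The largest group, with 6 genes, is on chromosome 12, where Tcl1b2, Tcl1b1, Tcl1b5, Tcl1b3, Tcl1b4 and Tcl1 fill 75.7 kb (105147019 to 105222737) with no other gene of the table between them. On chromosome 4 Oog2, Oog3, Oog4, Pramef6 and C87977 are 5 of the 16 genes of the table within 775.9 kb. Others are Trim60, Trim61 and Trim75 within 37 kb of chromosome 8, and Nlrp4a, Nlrp9a and Nlrp9c on chromosome 7. Chromosome 7 carried 12.1% of the 140 genes and 7.67% of the table's genes with a position, whereas chromosome 11 carried 0.714% (1 gene) and 7.97%. Neighbouring genes that arose by duplication have similar sequence, so the authors' read assignment may be split between them and their single values are uncertain.

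The promoter windows of the 5 Tcl1b genes are shown because these genes sit side by side and, as described further on, were lost together and had coefficients of variation of 23.5% to 34.6% among low protein 2-cell embryos, where the median of the 143 genes was 40.7%. Each window is from RefSeq on GRCm38.p6, runs 5′ to 3′ in the direction of the gene and covers 250 bases before and 50 bases after the gene's start. Capitals mark the longest run, 25 bases, that all 5 windows share, and in Tcl1b1 it begins at position -170 from the start.
Tcl1b1: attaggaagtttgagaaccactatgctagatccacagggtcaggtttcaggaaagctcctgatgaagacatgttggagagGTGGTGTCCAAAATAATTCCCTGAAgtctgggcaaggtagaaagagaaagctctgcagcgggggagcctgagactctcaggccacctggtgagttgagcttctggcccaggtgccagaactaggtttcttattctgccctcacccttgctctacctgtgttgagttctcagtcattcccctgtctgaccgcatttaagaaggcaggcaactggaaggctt
Tcl1b2: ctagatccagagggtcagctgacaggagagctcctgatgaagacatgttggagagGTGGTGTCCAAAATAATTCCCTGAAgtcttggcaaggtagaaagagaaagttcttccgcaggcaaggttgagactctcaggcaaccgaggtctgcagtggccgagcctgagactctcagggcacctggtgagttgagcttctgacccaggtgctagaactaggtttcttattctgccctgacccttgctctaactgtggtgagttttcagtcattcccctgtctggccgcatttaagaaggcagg
Tcl1b3: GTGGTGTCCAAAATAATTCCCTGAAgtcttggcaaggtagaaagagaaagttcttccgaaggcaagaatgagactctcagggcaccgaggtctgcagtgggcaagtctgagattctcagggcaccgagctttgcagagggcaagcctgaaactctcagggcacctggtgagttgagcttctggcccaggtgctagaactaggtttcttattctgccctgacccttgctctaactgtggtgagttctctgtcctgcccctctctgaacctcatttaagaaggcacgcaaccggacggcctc
Tcl1b4: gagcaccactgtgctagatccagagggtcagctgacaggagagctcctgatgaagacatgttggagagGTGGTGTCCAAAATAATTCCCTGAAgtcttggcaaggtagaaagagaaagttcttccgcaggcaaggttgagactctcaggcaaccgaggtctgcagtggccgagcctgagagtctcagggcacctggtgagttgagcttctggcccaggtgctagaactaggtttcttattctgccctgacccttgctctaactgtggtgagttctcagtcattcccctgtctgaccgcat
Tcl1b5: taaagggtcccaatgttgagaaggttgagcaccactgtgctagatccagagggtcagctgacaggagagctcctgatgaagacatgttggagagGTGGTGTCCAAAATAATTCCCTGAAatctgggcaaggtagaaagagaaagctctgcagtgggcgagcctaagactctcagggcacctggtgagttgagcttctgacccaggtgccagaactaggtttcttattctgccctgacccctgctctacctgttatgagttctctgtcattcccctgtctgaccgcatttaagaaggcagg
Their coordinates on the plus strand are chr12:105159454-105159753 for Tcl1b1, chr12:105146769-105147068 for Tcl1b2, chr12:105190795-105191094 for Tcl1b3, chr12:105202145-105202444 for Tcl1b4 and chr12:105176094-105176393 for Tcl1b5. No other gene of the table holds this run in a window, on either strand. Over the central 150 bases the Tcl1b windows aligned pairwise with an identity of 70% to 98.7%, highest between Tcl1b2 and Tcl1b4. By the same measure the Tcl1b windows had 50.7% to 54% with that of Tcl1, which lies on the minus strand at the end of the cluster. The level that unrelated sequences reach was not measured, so these values do not show partial identity. The window of Tcl1 is given for contrast.
Tcl1: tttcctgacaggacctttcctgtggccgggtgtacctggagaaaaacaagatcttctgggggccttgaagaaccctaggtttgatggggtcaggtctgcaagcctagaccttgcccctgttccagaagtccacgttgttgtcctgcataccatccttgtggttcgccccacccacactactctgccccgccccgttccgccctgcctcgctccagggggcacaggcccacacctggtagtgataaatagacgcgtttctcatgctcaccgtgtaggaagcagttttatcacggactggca
It covers chr12:105222688-105222987 and has no capitals, as it does not hold the run.

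Windows were available for 108 of the 143 genes (149 windows, of which 148 are distinct because Trim60 and Trim61 share 1) and were searched on both strands for 3 short motifs. Any of the 3 can share the letters TA with another at its ends. The TATA box TATAAA was in 14.8% of these 149 windows and in 7.38% of the 10585 windows of the table's other genes. TAATTG, the element bound by the oocyte homeobox factor NOBOX, was in 11.4% and 5.06%. It was in the windows of Oog3, Oog4, Nlrp9a, Nlrp9b and Trim75 and the window shared by Trim60 and Trim61. It was in none of those of Oog2, Nlrp4a, Nlrp4e, Nlrp4f, Nlrp9c, Rfpl4 and Rfpl4b. Genes outside these families, such as Gyg, Creb3l4, Pnrc1 and Lmo1, also had a window with it. GGATTA, the core bound by OTX-like homeobox factors, was in 8.72% and 5.95%. Clustered genes share sequence, so these windows are not independent, and a match is a description of letters only. In 124 of the genes with a coding transcript in GENCODE vM21 the transcripts had a median of 5.5 exons and a 3′ untranslated region of median 659 bases, against 9 exons and 879.5 bases in the other genes. Motifs linked to RNA control differed less. TTTTAT, a form of the cytoplasmic polyadenylation element, was in 53.2% of these untranslated regions and in 52.5% of the others. ATTTA was in 64.5% and 64.4%, and TGTANATA, the Pumilio element, in 19.4% and 23.1%.

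Before the results by gene, 1 embryo has to be set apart. The control blastocyst that is replicate 10, on plate 2, had a sum of 3861 TPM over the 143 genes, and the other 13 control blastocysts had at most 277.3 TPM. In it 89 of the 143 genes were above every other control blastocyst. How many of all genes were so was not counted, and this embryo had the most detected genes of its group (9124). Control means at the blastocyst stage carry this embryo, but choosing the genes without it gives the same 143. It takes no part in the tests of stage change, which use low protein embryos. Choosing by medians of control embryos gives 158 genes, 140 of them shared, and choosing by low protein embryos gives 147, of which 134 are shared. Genes just inside the 2% limit were Srgn (1.96% left at the 4-cell stage), AI987944 (1.98%) and D6Ertd527e (2.00%), and just outside it Tubb3 (2.02%), Il7 (2.03%) and Tpgs2 (2.04%). Just above the limit of 100 TPM were Cd160 (100.4 TPM), Scg3 (103.7 TPM) and Angptl2 (105.7 TPM), and just under it Pak7 (98.0 TPM), Sorbs2 (93.6 TPM) and Mansc1 (93.6 TPM). Oocyte genes that mark the stage were high in 2-cell embryos, where the 17 listed genes summed to a median of 40765 TPM in low protein and 39394 TPM in control embryos, and the 17 measured 2-cell genes summed to 5922 and 6130 TPM. Of the listed markers of cumulus cells and sperm only Amhr2 and Prm2 are in the table, so these cell types could hardly be assessed, and both had medians of at most 5.57 TPM in 2-cell embryos of either diet. Amhr2 had medians of 161.1 TPM in low protein and 184.6 TPM in control 4-cell embryos.

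Together the 143 genes made up a large share of the measured RNA of a 2-cell embryo. Their sum ran from 91955 to 205160 TPM, with a median of 162190 TPM (16.3% of the embryo's total), in low protein 2-cell embryos, and from 71831 to 188460 TPM, with a median of 150560 TPM (15.1%), in control 2-cell embryos. At the 4-cell stage it was 588.1 to 4388 TPM, median 1074 TPM, in low protein embryos and 607.8 to 2975 TPM, median 1046 TPM, in control embryos. The 2 stages do not overlap in either diet, and the sum was lower again in 8-cell embryos and morulae. The 8-cell embryos had 497.2 and 597.4 TPM with low protein sires and 441.5 and 443.6 TPM with control sires. Morulae had medians of 304.2 TPM in the low protein group and 280.2 TPM in the control group, and blastocysts had 229.1 and 207.8 TPM. Late blastocysts, whose 5 embryos lie on a plate without other blastocysts, had 244.6, 262.95 and 299.96 TPM with low protein sires and 341.4 and 346.5 TPM with control sires. The low protein 4-cell embryo with the highest sum, replicate 26, had the fewest detected genes of its group (5071), and the part of this in its value was not tested.

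**Figure D1:**
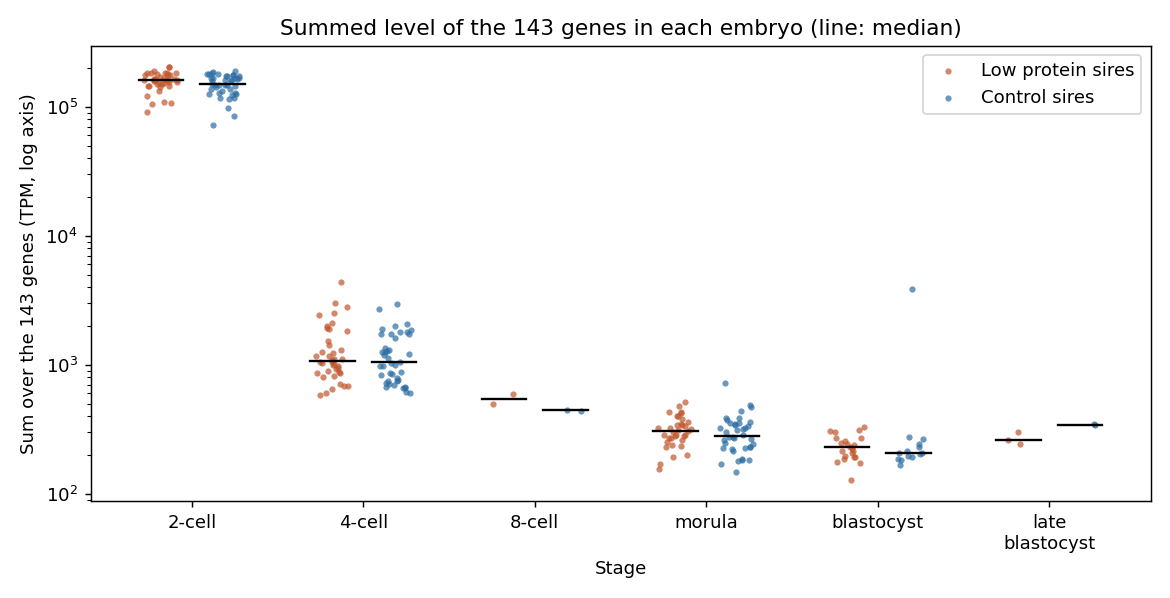
Summed level of the 143 genes in each embryo, in TPM on a log axis, by stage, with embryos of low protein sires left and of control sires right at each stage and a line at each median. The 2-cell embryos lie between 71831 and 205160 TPM and the 4-cell embryos at or under 4388 TPM, and 1 control blastocyst stands at 3861 TPM above the other blastocysts.

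The loss seen in control embryos held in the embryos of low protein sires, which had no part in choosing the genes. In a limma fit of log2(TPM + 1) over low protein embryos (2-cell, 4-cell, morula, blastocyst), with plate as covariate, all 143 genes fell between the 2-cell and 4-cell stage (adjusted p under 0.05 and a log2 change of 1 or more), as did 37.6% of all 11076 genes. Their median log2 change was -6.60, with a range of -8.85 (AA545190, a long non-coding RNA) to -5.45 (Mphosph6), whereas the median over all genes was -0.05. A total of 125 genes fell by over 6 log2 units and 13 by over 8. All 143 were also called lower in morulae than in 2-cell embryos (41.2% of all genes) and lower in blastocysts than in 2-cell embryos (47.3%). Of the 143 genes, 124 had every low protein 4-cell embryo below every low protein 2-cell embryo, as did 6.98% of all genes. The level left at the 4-cell stage was 0.939% of the 2-cell mean for the median gene in low protein embryos and 0.963% in control embryos. In 8 genes the low protein 4-cell mean was over 2% of the 2-cell mean, and without its highest embryo each of the 8 was under 2%. Leaving out the highest embryo can only lower a mean. Some stayed near the limit, such as Mphosph6 (2.28% with and 1.95% without) and D6Ertd527e (2.12% and 1.97%). For Pnrc1 the value was 3.52% with and 0.763% without 1 embryo at 294 TPM (median 0.43 TPM), and for Mettl7a2 it was 3.09% with and 1.37% without 1 embryo at 144 TPM.

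**Figure D2:**
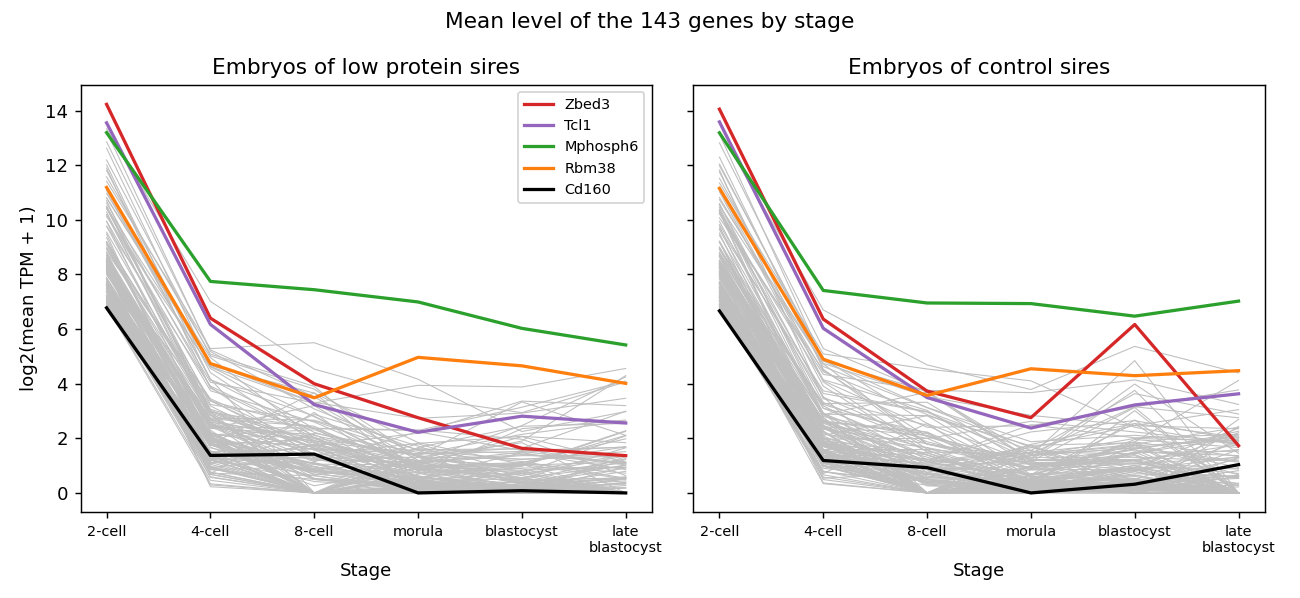
Mean level of each of the 143 genes (grey lines) as log2(mean TPM + 1) at 6 stages, in embryos of low protein sires (left) and control sires (right), with 5 genes in colour. The steepest step is from the 2-cell to the 4-cell stage in both panels, Mphosph6 stays highest afterwards, and the peak of Zbed3 among control blastocysts comes from replicate 10 with 964.7 TPM.

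A few genes carried most of this RNA. In low protein 2-cell embryos 31 genes averaged at least 1000 TPM, the 15 highest made up 63.6% of the summed mean, and the median gene averaged 320.2 TPM. Where 3 values are given for a group, they are its lowest, median and highest embryo. The highest gene was Zbed3 (chromosome 13, 95323605 to 95337842), a BED-type zinc finger protein that binds Axin in Wnt signalling. Zbed3 had a lowest, median and highest value of 1666, 18691 and 44630 TPM in low protein 2-cell embryos and 1013, 17693 and 48707 TPM in control 2-cell embryos. In 4-cell embryos Zbed3 had 7.79, 48.7 and 420.3 TPM in low protein embryos and 6.98, 70.8 and 311 TPM in control embryos. Every 4-cell embryo lay below every 2-cell embryo in both diets. Zbed3 had 0, 2.55 and 27.4 TPM in low protein morulae and 0, 2.88 and 37.4 TPM in control morulae, and 0, 1.31 and 8.56 TPM in low protein blastocysts and 0, 1.59 and 965 TPM in control blastocysts. The log2 change at the 4-cell stage was -8.46 ± 0.24 SE in low protein embryos, and the 8-cell embryos still held 2.63 and 27.3 TPM with low protein sires and 9.76 and 14.7 TPM with control sires.

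Spin1 encodes spindlin, a reader of methylated histone H3 known as an abundant maternal protein of the mouse egg. Spin1 had a lowest, median and highest value of 4559, 9754 and 23696 TPM in low protein 2-cell embryos and 2464, 9434 and 17318 TPM in control 2-cell embryos. In 4-cell embryos Spin1 had 48.1, 115 and 364 TPM in low protein embryos and 39.6, 90.5 and 317 TPM in control embryos. Its low protein 4-cell embryos kept 1.24% of the 2-cell mean, more than the median of the 143 genes. Spin1 had 2.9, 9.38 and 25.03 TPM in low protein morulae and 2.48, 8.73 and 118 TPM in control morulae, and 2.16, 6.695 and 12.98 TPM in low protein blastocysts and 3.09, 7.49 and 475 TPM in control blastocysts. Every morula and blastocyst of both diets held some Spin1. E330034G19Rik is a protein-coding gene with no role assigned here. E330034G19Rik had a lowest, median and highest value of 2293, 10093 and 17585 TPM in low protein 2-cell embryos and 1177, 9250 and 16841 TPM in control 2-cell embryos. In 4-cell embryos E330034G19Rik had 3.59, 20.5 and 215 TPM in low protein embryos and 1.7, 25.9 and 70.8 TPM in control embryos. It lost more than Spin1, with 0.367% of the mean left in low protein 4-cell embryos. E330034G19Rik had 0, 1.51 and 15.2 TPM in low protein morulae and 0, 1 and 19.7 TPM in control morulae, and 0, 0 and 3.3 TPM in low protein blastocysts and 0, 0 and 39.1 TPM in control blastocysts. Blastocysts of both diets had a median of 0 TPM.

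Mphosph6 encodes a protein of the RNA exosome that takes part in ribosomal RNA processing. Mphosph6 had a lowest, median and highest value of 3683, 9504 and 17052 TPM in low protein 2-cell embryos and 2813, 9066 and 22435 TPM in control 2-cell embryos. In 4-cell embryos Mphosph6 had 65.3, 165 and 1427 TPM in low protein embryos and 72.7, 171 and 309 TPM in control embryos. Of the 143 genes it fell least in low protein embryos (-5.45 ± 0.12 SE on the log2 scale) and was the most abundant afterwards. Mphosph6 had 21.2, 120.0 and 346 TPM in low protein morulae and 8.46, 101 and 551 TPM in control morulae, and 16.8, 65.6 and 121 TPM in low protein blastocysts and 51.9, 63.5 and 374 TPM in control blastocysts. It is the one gene of the 143 that had at least 8.46 TPM in every morula and blastocyst. AU022751, called Ezhip in RefSeq, encodes an inhibitor of the histone methyltransferase complex PRC2. AU022751 had a lowest, median and highest value of 239, 2271 and 6697 TPM in low protein 2-cell embryos and 143, 2251 and 5323 TPM in control 2-cell embryos. In 4-cell embryos AU022751 had 6.55, 28.2 and 134 TPM in low protein embryos and 3.34, 26.3 and 111 TPM in control embryos. AU022751 had 0, 13.1 and 42.9 TPM in low protein morulae and 0, 13.9 and 63.8 TPM in control morulae, and 0, 3.02 and 11.8 TPM in low protein blastocysts and 0, 2.92 and 18.3 TPM in control blastocysts. Its blastocysts held less than its morulae in both diets by median, and the drop was called in low protein embryos (-1.53 ± 0.37 SE on the log2 scale, limma adjusted p = 0.000302).

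Rfpl4, a ret finger protein-like gene of germ cells, belongs to the TRIM-related group. Rfpl4 had a lowest, median and highest value of 826, 6013 and 13868 TPM in low protein 2-cell embryos and 648, 4668 and 9731 TPM in control 2-cell embryos. In 4-cell embryos Rfpl4 had 0, 13.99 and 125 TPM in low protein embryos and 0, 19.2 and 73.02 TPM in control embryos. Rfpl4 had 0, 0 and 7.98 TPM in low protein morulae and 0, 0.32 and 6.74 TPM in control morulae, and 0, 0 and 5.14 TPM in low protein blastocysts and 0, 0 and 12.9 TPM in control blastocysts. Most morulae and blastocysts were at or near 0. Trim61, a TRIM gene of the chromosome 8 cluster, was the next of this group. Trim61 had a lowest, median and highest value of 1804, 4861 and 7587 TPM in low protein 2-cell embryos and 1081, 4198 and 7920.5 TPM in control 2-cell embryos. In 4-cell embryos Trim61 had 0, 28.5 and 77.5 TPM in low protein embryos and 3.65, 19.9 and 88.3 TPM in control embryos. Trim61 had 0, 0.61 and 6.07 TPM in low protein morulae and 0, 0.605 and 11.7 TPM in control morulae, and 0, 0 and 3.76 TPM in low protein blastocysts and 0, 0 and 170.3 TPM in control blastocysts. The one blastocyst with a high value is control replicate 10. Trim60 had 0, 2.71 and 9.55 TPM in low protein 4-cell embryos and 0, 3.14 and 21.96 TPM in control 4-cell embryos, against 95.98, 579 and 964 TPM in low protein 2-cell embryos and 20.3, 512 and 879.8 TPM in control 2-cell embryos. Trim75 had 0, 1.77 and 21.7 TPM in low protein 4-cell embryos and 0, 4.08 and 23.2 TPM in control 4-cell embryos, against 37.4, 385 and 747 TPM in low protein 2-cell embryos and 12.1, 346 and 733 TPM in control 2-cell embryos. Rfpl4b had 0, 0 and 10.7 TPM in low protein 4-cell embryos and 0, 0 and 29.3 TPM in control 4-cell embryos, against 30.03, 131 and 633 TPM in low protein 2-cell embryos and 7.89, 144 and 749 TPM in control 2-cell embryos. For Trim60, Trim75 and Rfpl4b the median in morulae and blastocysts was 0 TPM in both diets, and their highest value there was 6.13 TPM, for Trim60 in a control blastocyst. Among the 31 TRIM and RFPL genes measured, 16 were lower and 8 higher at the 4-cell stage (37.6% and 34.4% of all genes), and the 5 described here are those the choice picked for their loss.

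Oosp3, an oocyte secreted protein gene, had a coefficient of variation of 29.3% among low protein 2-cell embryos, where the median of the 143 genes was 40.7%. Oosp3 had a lowest, median and highest value of 2288, 3921 and 7577 TPM in low protein 2-cell embryos and 1523, 3749.9 and 8431 TPM in control 2-cell embryos. In 4-cell embryos Oosp3 had 0, 11.6 and 95.5 TPM in low protein embryos and 0, 17.8 and 306 TPM in control embryos. Oosp3 had 0, 0 and 12.1 TPM in low protein morulae and 0, 0 and 11.3 TPM in control morulae, and 0, 0 and 10.3 TPM in low protein blastocysts and 0, 0 and 7.37 TPM in control blastocysts. C86187, a long non-coding RNA on chromosome 7, was of similar abundance. C86187 had a lowest, median and highest value of 1154, 3641 and 5833 TPM in low protein 2-cell embryos and 1195, 3556 and 4938 TPM in control 2-cell embryos. In 4-cell embryos C86187 had 0.64, 13.98 and 109 TPM in low protein embryos and 0, 13.2 and 55.2 TPM in control embryos. C86187 had 0, 0 and 11.1 TPM in low protein morulae and 0, 0 and 9.06 TPM in control morulae, and 0, 0 and 2.45 TPM in low protein blastocysts and 0, 0 and 206 TPM in control blastocysts. The highest blastocyst value is again that of control replicate 10. Rbm38, an RNA-binding protein that acts on mRNA stability, took another course. Rbm38 had a lowest, median and highest value of 894, 2310.2 and 4098 TPM in low protein 2-cell embryos and 213, 2383 and 3298 TPM in control 2-cell embryos. In 4-cell embryos Rbm38 had 0, 23.2 and 89.2 TPM in low protein embryos and 3.43, 25.5 and 119 TPM in control embryos. Rbm38 had 0, 28.9 and 80.1 TPM in low protein morulae and 0, 18.3 and 65.02 TPM in control morulae, and 8.64, 18.4 and 80.8 TPM in low protein blastocysts and 9.59, 17.9 and 39.4 TPM in control blastocysts. Its morulae held about what its 4-cell embryos held, with a log2 difference of 0.30 ± 0.24 SE and a limma adjusted p of 0.284.

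**Figure D3:**
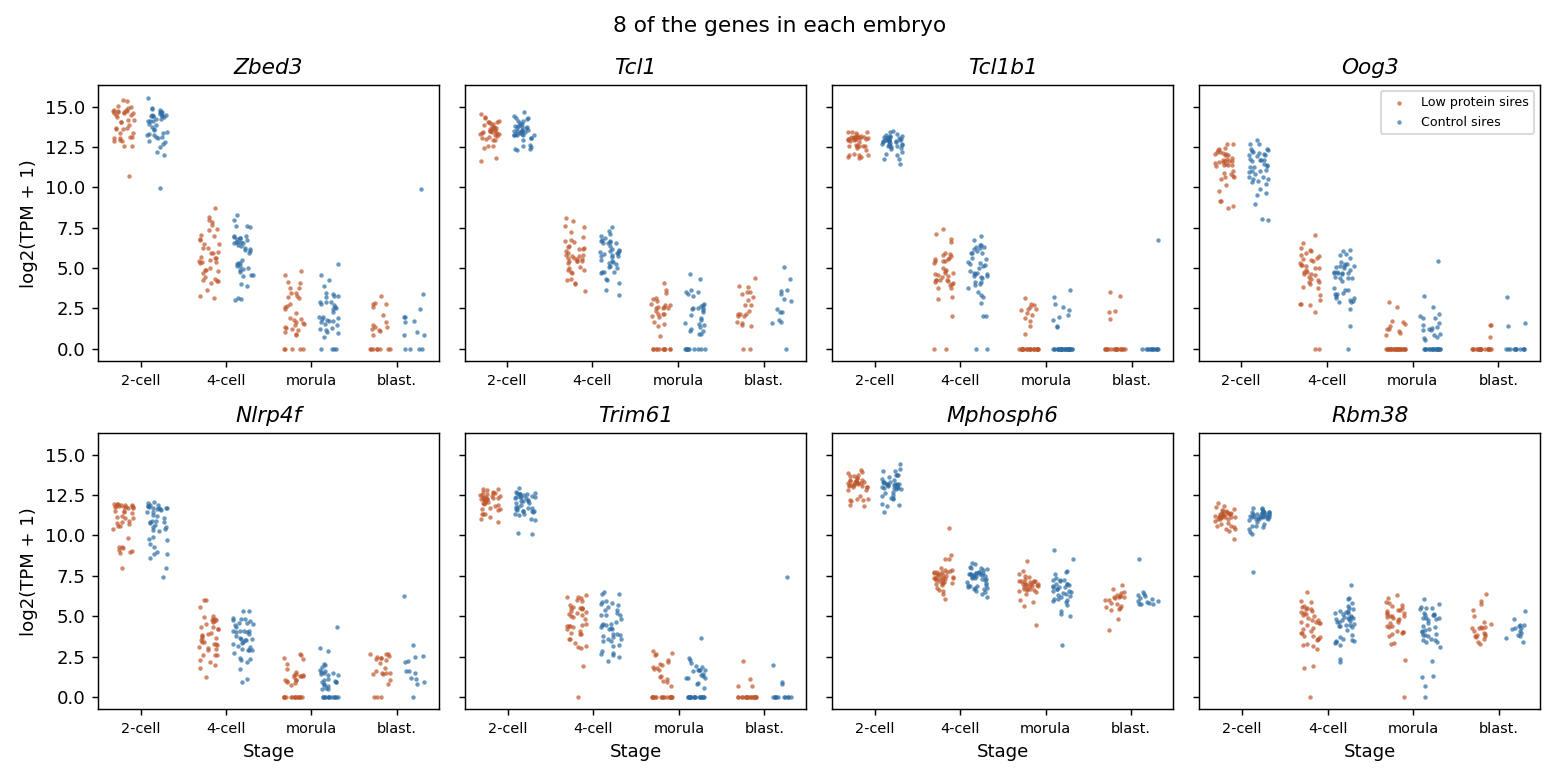
Values of 8 of the genes in each embryo as log2(TPM + 1), by stage, with embryos of low protein sires left and of control sires right. In the panels of Zbed3, Tcl1, Tcl1b1, Trim61 and Mphosph6 no 4-cell embryo reaches the 2-cell embryos, Mphosph6 and Rbm38 keep a level in most morulae and blastocysts, and 1 control blastocyst stands above the rest for Zbed3, Tcl1b1, Nlrp4f and Trim61.

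Tcl1 is a coactivator of the kinase AKT, and the Tcl1b genes are its neighbours and relatives in the mouse. All 7 family genes of the table, Mtcp1 included, were lower at the 4-cell stage in low protein embryos, with a median log2 change of -7.60, as were 37.6% of all genes, and 6 of the 7 had been chosen for this loss in control embryos. Tcl1 had a lowest, median and highest value of 3123, 11384 and 24465 TPM in low protein 2-cell embryos and 5051, 11548 and 26051 TPM in control 2-cell embryos. In 4-cell embryos Tcl1 had 10.8, 50.2 and 278 TPM in low protein embryos and 9.2, 56.2 and 187 TPM in control embryos. Tcl1 had 0, 3.4 and 16.1 TPM in low protein morulae and 0, 2.21 and 24.4 TPM in control morulae, and 0, 3.87 and 19.9 TPM in low protein blastocysts and 0, 5.59 and 32.6 TPM in control blastocysts. Tcl1 was called higher in low protein blastocysts than in morulae (1.03 ± 0.32 SE on the log2 scale, limma adjusted p = 0.00512), at levels far under those of 2-cell embryos. Tcl1b1 had a lowest, median and highest value of 3625, 8039 and 11282 TPM in low protein 2-cell embryos and 2766, 7431 and 11321 TPM in control 2-cell embryos. In 4-cell embryos Tcl1b1 had 0, 24.4 and 168 TPM in low protein embryos and 0, 26.5 and 128 TPM in control embryos. Tcl1b1 had 0, 0 and 7.71 TPM in low protein morulae and 0, 0 and 11.6 TPM in control morulae, and 0, 0 and 10.6 TPM in low protein blastocysts and 0, 0 and 108 TPM in control blastocysts. Tcl1b1 was the most abundant Tcl1b gene. Tcl1b2 had a lowest, median and highest value of 1017, 4001 and 6135 TPM in low protein 2-cell embryos and 901, 3792 and 5833 TPM in control 2-cell embryos. In 4-cell embryos Tcl1b2 had 0, 9.11 and 85.2 TPM in low protein embryos and 0, 7.99 and 38.4 TPM in control embryos. Tcl1b2 had 0, 0 and 5.81 TPM in low protein morulae and 0, 0 and 6.05 TPM in control morulae, and 0, 0 and 0 TPM in low protein blastocysts and 0, 0 and 34.9 TPM in control blastocysts. For Tcl1, Tcl1b1 and Tcl1b2 every 4-cell embryo lay below every 2-cell embryo in both diets.

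The other Tcl1b genes followed the same course at lower levels. Tcl1b3 had 0, 12.2 and 65.8 TPM in low protein 4-cell embryos and 0, 10.6 and 74.4 TPM in control 4-cell embryos, against 1083, 2196 and 3198 TPM in low protein 2-cell embryos and 871, 2215 and 3646 TPM in control 2-cell embryos. Tcl1b4 had 0, 4.25 and 34.6 TPM in low protein 4-cell embryos and 0, 3.54 and 26.9 TPM in control 4-cell embryos, against 828, 1404 and 2254 TPM in low protein 2-cell embryos and 627, 1363 and 1972 TPM in control 2-cell embryos. Tcl1b5 had 0, 6.97 and 152 TPM in low protein 4-cell embryos and 0, 8.51 and 30.6 TPM in control 4-cell embryos, against 810.2, 1510.5 and 2673 TPM in low protein 2-cell embryos and 623, 1461 and 2445 TPM in control 2-cell embryos. In morulae and blastocysts of both diets the medians of Tcl1b1 to Tcl1b5 were 0 TPM, with highest morula values of 7.71 and 11.6 TPM for Tcl1b1 in low protein and control embryos. In control blastocyst replicate 10 Tcl1b1 had 108.4 TPM, Tcl1b5 97.5 TPM, Tcl1b3 65.1 TPM and Tcl1b2 34.9 TPM, whereas the highest of the other control blastocysts was 0, 1.69, 2.65 and 0 TPM. From the 4-cell stage to the morula 6 of 7 family genes fell further in low protein embryos, all but Mtcp1, as did 23.7% of all genes. The steepest was Tcl1b1 (-4.19 ± 0.27 SE on the log2 scale).

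All 12 Nlrp genes of the table were lower at the 4-cell stage in low protein embryos, with a median log2 change of -6.00, and 9 of 12 were lower again in morulae than in 4-cell embryos (37.6% and 23.7% of all genes). Of these 12, 7 had been chosen for their loss in control embryos. NLR proteins have a leucine-rich repeat and a nucleotide-binding domain, and in rodents a branch of the family is specific to oocytes. Nlrp4f had a lowest, median and highest value of 249.6, 2382 and 3999.8 TPM in low protein 2-cell embryos and 172, 1911 and 4244 TPM in control 2-cell embryos. In 4-cell embryos Nlrp4f had 1.39, 11.96 and 64.3 TPM in low protein embryos and 0.88, 11.5 and 39.1 TPM in control embryos. Nlrp4f had 0, 1.02 and 5.31 TPM in low protein morulae and 0, 0.885 and 19.4 TPM in control morulae, and 0, 2.2 and 5.39 TPM in low protein blastocysts and 0, 2.05 and 76.1 TPM in control blastocysts. The blastocyst at 76.1 TPM is control replicate 10. Nlrp4g had 0, 1.27 and 15.5 TPM in low protein 4-cell embryos and 0, 2.35 and 10.8 TPM in control 4-cell embryos, against 5.37, 597 and 1380.5 TPM in low protein 2-cell embryos and 2.53, 463 and 1456 TPM in control 2-cell embryos. Nlrp9c had 0.59, 5.01 and 37.3 TPM in low protein 4-cell embryos and 0, 4.52 and 12.9 TPM in control 4-cell embryos, against 116, 556 and 1036 TPM in low protein 2-cell embryos and 135, 581 and 1298 TPM in control 2-cell embryos. Nlrp9c was the more even of these among 2-cell embryos, and Nlrp4g the less even. Nlrp9a had 0, 1.57 and 14.4 TPM in low protein 4-cell embryos and 0, 1.75 and 20.4 TPM in control 4-cell embryos, against 25.8, 423 and 759.9 TPM in low protein 2-cell embryos and 30.5, 360.1 and 873 TPM in control 2-cell embryos. Nlrp4e had 0, 1.4 and 11.1 TPM in low protein 4-cell embryos and 0, 1.18 and 153 TPM in control 4-cell embryos, against 76.2, 371 and 668 TPM in low protein 2-cell embryos and 8.26, 322 and 709 TPM in control 2-cell embryos. The 2-cell and 4-cell ranges of Nlrp9a and Nlrp4e did not overlap in low protein embryos, whereas those of Nlrp4g and Nlrp9b did. In control embryos the ranges of Nlrp4e overlapped. Nlrp4a had 0, 3.63 and 18.2 TPM in low protein 4-cell embryos and 0, 3.56 and 16.5 TPM in control 4-cell embryos, against 34.2, 297 and 773 TPM in low protein 2-cell embryos and 29.6, 223 and 790.1 TPM in control 2-cell embryos. Nlrp9b had 0, 1.04 and 21.6 TPM in low protein 4-cell embryos and 0, 0.865 and 11.2 TPM in control 4-cell embryos, against 9.98, 143 and 418 TPM in low protein 2-cell embryos and 3.76, 131 and 338 TPM in control 2-cell embryos. Apart from Nlrp4f, the Nlrp genes among the 143 had medians of 0 TPM in morulae and blastocysts of both diets, with 14.8 TPM, for Nlrp4e in a control blastocyst, as the highest value.

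PRAME-like genes encode leucine-rich repeat proteins, with oogenesin members active in oocytes. Of the 12 genes with a symbol that starts with Oog, Pramel or Pramef, 6 were lower and 5 higher at the 4-cell stage in low protein embryos (37.6% and 34.4% of all genes), and 4 of the 6 had been chosen for their loss. C87977, C87414 and C87499, PRAME-like by their RefSeq names, are not in this count and were lower as well, with changes of -6.46, -7.73 and -6.45 on the log2 scale. Oog3 had a lowest, median and highest value of 429, 3019 and 6618 TPM in low protein 2-cell embryos and 247, 2549 and 7797 TPM in control 2-cell embryos. In 4-cell embryos Oog3 had 0, 26.5 and 132 TPM in low protein embryos and 0, 22.2 and 68.9 TPM in control embryos. Oog3 had 0, 0 and 6.62 TPM in low protein morulae and 0, 0.245 and 43.01 TPM in control morulae, and 0, 0 and 1.77 TPM in low protein blastocysts and 0, 0 and 8.37 TPM in control blastocysts. Oog3 was the most abundant of the 4. Oog4 had 0, 0.77 and 23.2 TPM in low protein 4-cell embryos and 0, 1.45 and 15.3 TPM in control 4-cell embryos, against 90.9, 359 and 741 TPM in low protein 2-cell embryos and 35.4, 334 and 806 TPM in control 2-cell embryos. Oog2 had 0, 2.49 and 24.3 TPM in low protein 4-cell embryos and 0, 4.46 and 20.3 TPM in control 4-cell embryos, against 66.8, 288 and 412 TPM in low protein 2-cell embryos and 48.1, 253 and 598 TPM in control 2-cell embryos. Oog2 was as even among 2-cell embryos as Tcl1b3, with coefficients of variation of 25.07% and 24.99% in low protein embryos. Pramef6 had 0, 0 and 6.24 TPM in low protein 4-cell embryos and 0, 0.9 and 11.5 TPM in control 4-cell embryos, against 0, 108 and 419 TPM in low protein 2-cell embryos and 0, 110.4 and 255 TPM in control 2-cell embryos. It was listed at 0 in at least 1 low protein embryo of each stage. Oog2 and Oog4 had medians of 0 TPM in morulae and blastocysts of both diets, with 7.47 TPM as the highest value. Pramef6 had 0, 1.51 and 6.01 TPM in low protein morulae and 0, 0.815 and 8.46 TPM in control morulae, and 0, 0.62 and 4.3 TPM in low protein blastocysts and 0, 1.61 and 8.86 TPM in control blastocysts.

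Regulators of oocyte gene expression were also among the genes that fell. NOBOX and LHX8 are homeobox factors that drive oocyte genes in early follicles. Nobox had 0, 0 and 30.1 TPM in low protein 4-cell embryos and 0, 1.44 and 9.56 TPM in control 4-cell embryos, against 127, 319.9 and 552 TPM in low protein 2-cell embryos and 10.8, 298 and 811 TPM in control 2-cell embryos. Lhx8 had 0, 0.81 and 14.4 TPM in low protein 4-cell embryos and 0, 0.225 and 7.92 TPM in control 4-cell embryos, against 16.2, 162 and 280.2 TPM in low protein 2-cell embryos and 7.23, 138 and 322 TPM in control 2-cell embryos. Of 9 listed oocyte transcription factors measured, 6 were lower and 1 higher at the 4-cell stage in low protein embryos (37.6% and 34.4% of all genes). Of the 6, Nobox and Lhx8 had been chosen for their loss in control embryos. DAZL, PABPC1L and EIF4E1B act on translation of stored maternal RNA. Dazl had 0, 2.44 and 13.98 TPM in low protein 4-cell embryos and 0, 2.21 and 18.8 TPM in control 4-cell embryos, against 114, 336 and 684 TPM in low protein 2-cell embryos and 95.9, 261 and 798 TPM in control 2-cell embryos. Pabpc1l had 0, 0.515 and 9.77 TPM in low protein 4-cell embryos and 0, 0 and 7.89 TPM in control 4-cell embryos, against 16.4, 149 and 466 TPM in low protein 2-cell embryos and 2.34, 116 and 327 TPM in control 2-cell embryos. Eif4e1b had 0, 2.17 and 41.7 TPM in low protein 4-cell embryos and 0, 2.31 and 22.99 TPM in control 4-cell embryos, against 38.9, 223 and 646 TPM in low protein 2-cell embryos and 26.1, 214 and 1044 TPM in control 2-cell embryos. Against the same shares of all genes, 15 of 17 oocyte RNA-binding genes were lower, all but Celf1 and Igf2bp2, and 0 were higher. Of the 15, Dazl, Pabpc1l and Eif4e1b had been chosen for their loss. In blastocysts of both diets the medians of Nobox, Lhx8, Dazl, Pabpc1l and Eif4e1b were 0 TPM, and in morulae too except Dazl in the low protein group (0.44 TPM). Their highest value at those stages was 16.6 TPM, for Dazl in a control morula.

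Meiotic and egg surface functions appear among the 143 with 1 gene each from their lists. Wee2, the oocyte kinase that keeps CDK1 inhibited during meiotic arrest, had 0, 4.76 and 36.4 TPM in low protein 4-cell embryos and 0, 5.13 and 30.02 TPM in control 4-cell embryos, against 188, 1804 and 3197 TPM in low protein 2-cell embryos and 175, 1642 and 2713 TPM in control 2-cell embryos. Of 14 genes of the meiosis and cell cycle list 7 were lower and 1 higher in low protein 4-cell embryos (37.6% and 34.4% of all genes). Izumo1r, also called Juno, is the egg receptor of sperm IZUMO1 and had 0, 0 and 16.8 TPM in low protein 4-cell embryos and 0, 0 and 12.8 TPM in control 4-cell embryos, against 68.8, 190.3 and 528 TPM in low protein 2-cell embryos and 12.8, 171 and 411 TPM in control 2-cell embryos. Of 8 genes of the zona and egg surface list 6 were lower and 2, Cd9 and Khdc3, were higher. Against the same shares of all genes, the signalling list had 8 of 10 lower and 2 higher, the Fbxw list, of which Fbxw4 is among the 143, had 15 of 18 lower and 2 higher, and the deubiquitinase list had 27 of 59 lower and 13 higher. No gene of the signalling list is among the 143. The deubiquitinase list has none either, since Usp17 genes were left out by symbol.

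After the 4-cell stage many of the genes fell further and most were at 0 in the typical embryo. From 4-cell to morula 66 of the 143 genes were called lower and 0 higher in low protein embryos by limma (23.7% and 11.4% of all genes), with a median log2 change of -0.96. At an unadjusted p under 0.05, in either direction and at any size of change, there were 125 of the 143 and 7437 of all 11076 genes. Among the 125 Smco4 alone had a positive change (0.52 on the log2 scale). The pseudocount of 1 TPM sets a floor that limits changes of genes already near 0: with a pseudocount of 0.1, 118 genes were called lower. By the morula stage the median was 0 TPM for 106 genes and by the blastocyst stage for 108 genes in low protein embryos, and for 105 and 107 genes in control embryos. In the 8-cell embryos 47 of the genes were at 0 TPM in both low protein embryos and 43 in both control embryos. Late blastocysts had 71 genes at 0 TPM in all 3 low protein embryos and 77 in both control embryos. Mphosph6 was again the highest by mean at both stages. Mphosph6 had 177 and 168 TPM in low protein and 169 and 76.9 TPM in control 8-cell embryos, and 58.4, 42.9 and 23.9 TPM in low protein and 158 and 100.4 TPM in control late blastocysts. Rbm38 had 4.38 and 15.97 TPM in low protein and 5.42 and 16.3 TPM in control 8-cell embryos, and 3.95, 12.1 and 29.3 TPM in low protein and 26.6 and 15.9 TPM in control late blastocysts. Spin1 had 21.8 and 22.5 TPM in low protein and 20.8 and 28.7 TPM in control 8-cell embryos, and 13.5, 16.1 and 17.6 TPM in low protein and 16.4 and 23.8 TPM in control late blastocysts. No test was run on these few embryos.

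Between the morula and the blastocyst 9 genes were called higher (5.01% of all genes) and 2 lower (19.1%) in low protein embryos. The 9 were Smim14, Ggct, Mettl7a2, AI987944, B4galt4, Hsd3b7, Tubb2b, Dnajb4 and Tcl1, and the 2 were AU022751 and B020031M17Rik. Smim14, a small membrane protein gene, had the largest change (1.68 ± 0.28 SE on the log2 scale, limma adjusted p = 1.6e-07) and averaged 9.08 ± 7.86 TPM (SD, n = 22) in blastocysts, against 1.53 ± 2.105 TPM (n = 35) in morulae. Ggct, an enzyme of glutathione breakdown, averaged 7.801 ± 7.79 TPM in blastocysts, against 3.88 ± 4.69 TPM in morulae. B4galt4, a galactosyltransferase, averaged 4.104 ± 3.01 TPM, against 0.605 ± 1.05 TPM. These blastocyst means are a few TPM, and none neared the 2-cell level. The 9 higher calls among the 143 genes are a share close to the 5.01% of all genes. They therefore do not set the 143 genes apart from the table. Plate 1 held low protein morulae but no low protein blastocysts, and without it 9 genes were called higher. Without the plate covariate 4 genes were called higher and 1 lower, without plate 1 there was 1 lower, without plate 6 there were 5, and with a pseudocount of 0.1 there were 12 higher and 8 lower.

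The genes with the largest share left in low protein morulae or blastocysts were of moderate abundance. Mapk3, the kinase ERK1, kept 2.93% of its 2-cell mean in low protein blastocysts. Mapk3 had 49.1, 142 and 291 TPM in low protein 2-cell embryos and 69.1, 129 and 271 TPM in control 2-cell embryos, and 0, 1.81 and 16.4 TPM in low protein 4-cell embryos and 0, 0 and 10.3 TPM in control 4-cell embryos. Mapk3 had 0, 0.71 and 19.1 TPM in low protein morulae and 0, 1.35 and 7.35 TPM in control morulae, and 0, 1.08 and 22.6 TPM in low protein blastocysts and 0, 2.03 and 7.64 TPM in control blastocysts. The blastocyst mean of Mapk3 lies far above the median of 1.08 TPM. Mettl7a2 is a methyltransferase-like gene that kept 2.201%. Mettl7a2 had 26.1, 212 and 495 TPM in low protein 2-cell embryos and 13.9, 207 and 637 TPM in control 2-cell embryos, and 0, 1.63 and 144 TPM in low protein 4-cell embryos and 0, 1.22 and 22.7 TPM in control 4-cell embryos. Mettl7a2 had 0, 0 and 6.39 TPM in low protein morulae and 0, 0 and 10.6 TPM in control morulae, and 0, 4.24 and 14.2 TPM in low protein blastocysts and 0, 2.21 and 11.7 TPM in control blastocysts. No blastocyst reached its lowest 2-cell embryo in either diet. AI987944, a gene with no role assigned here, kept 2.07%. AI987944 had 53.1, 465 and 869 TPM in low protein 2-cell embryos and 129.8, 343 and 1727 TPM in control 2-cell embryos, and 0, 5.88 and 84.5 TPM in low protein 4-cell embryos and 0, 5.83 and 28.02 TPM in control 4-cell embryos. AI987944 had 0, 2.2 and 24.2 TPM in low protein morulae and 0, 2.33 and 18.4 TPM in control morulae, and 0.79, 5.07 and 56.1 TPM in low protein blastocysts and 0, 3.28 and 29.7 TPM in control blastocysts. It was above 0 in every low protein blastocyst. Tubb2b is a beta-tubulin and kept 1.81%. Tubb2b had 35.8, 132 and 247 TPM in low protein 2-cell embryos and 22.9, 125 and 273 TPM in control 2-cell embryos, and 0, 0 and 20.4 TPM in low protein 4-cell embryos and 0, 0 and 10.7 TPM in control 4-cell embryos. Tubb2b had 0, 0 and 25.5 TPM in low protein morulae and 0, 0 and 4.95 TPM in control morulae, and 0, 1.27 and 15.9 TPM in low protein blastocysts and 0, 1.09 and 5.12 TPM in control blastocysts. Hsd3b7 is an enzyme of bile acid synthesis and kept 1.797%. Hsd3b7 had 46.1, 188 and 401 TPM in low protein 2-cell embryos and 5.8, 196 and 321 TPM in control 2-cell embryos, and 0, 0.72 and 66.3 TPM in low protein 4-cell embryos and 0, 0 and 16.8 TPM in control 4-cell embryos. Hsd3b7 had 0, 0.62 and 20.02 TPM in low protein morulae and 0, 0 and 9.19 TPM in control morulae, and 0, 2.605 and 16.6 TPM in low protein blastocysts and 0, 1.98 and 16.1 TPM in control blastocysts. For Tubb2b and Hsd3b7 the morula median was at most 0.62 TPM in either diet.

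Among the 80 2-cell embryos most of the 143 genes varied with the other oocyte transcripts. An oocyte score was taken as the mean log2(TPM + 1) of 17 oocyte genes and a 2-cell score as that of 17 genes activated at the 2-cell stage (Zscan4, Tcstv, Usp17l, Tdpoz genes and Zfp352). None of the score genes is among the 143. Slopes are log2 units per SD of the score, from limma fits with plate and diet as covariates. On the oocyte score 99 of the 143 genes had a positive slope and 5 a negative slope at an adjusted p under 0.05 (27.3% and 15.1% of 11038 genes tested), with a median slope of 0.28 over the 143 and 0.06 over all genes. With the number of detected genes as a further covariate the counts were 91 and 5 (21.5% and 23% of all genes), of which 88 and 4 were called without it. On the 2-cell score 69 had a positive and 19 a negative slope (28.1% and 3.42% of all genes). These counts fell to 5 and 1 with detected genes as a covariate (1.49% and 0.308% of all genes). Detected genes moved with both scores, with a Pearson correlation of 0.436 for the 2-cell score and 0.449 for the oocyte score over embryos that share plates. In low protein embryos alone 58 genes were called positive and 2 negative on the oocyte score, and 20 positive and 27 negative on the 2-cell score. In control embryos alone the 2-cell score gave 55 positive and 0 negative calls. The difference between the diets was not tested. Single plates moved the calls on the 2-cell score, with 29 positive without plate 4, 36 positive and 2 negative without plate 5, and 12 negative without plate 1. Shares of all genes were not counted for fits of 1 diet, with a plate left out or without a plate term. Their counts can therefore not be set against the table as a whole.

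**Figure D4:**
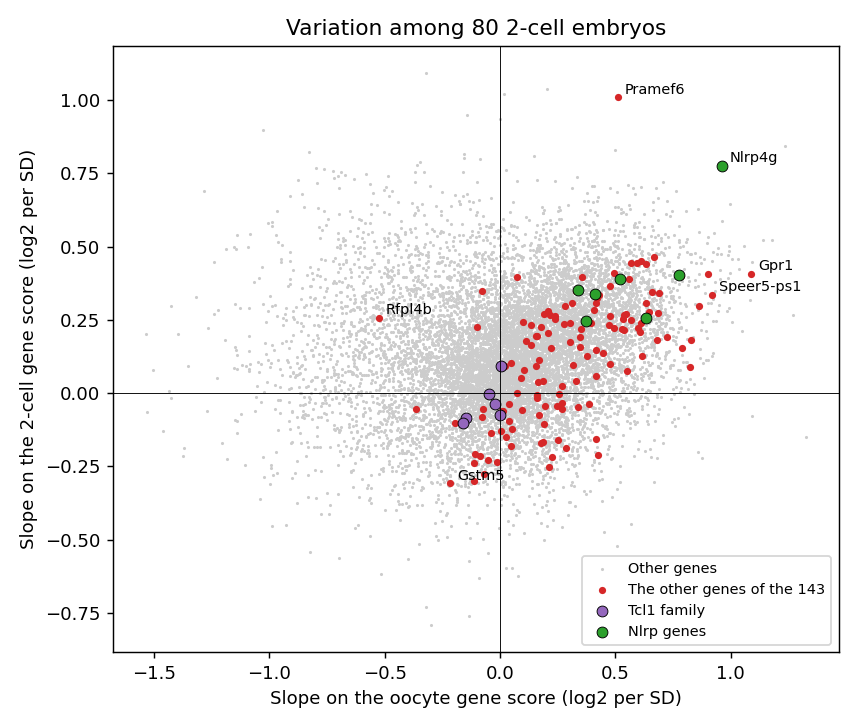
Slope of each gene on the oocyte gene score (x axis) and on the 2-cell gene score (y axis) among 80 2-cell embryos, in log2 units per SD of the score, for all genes (grey) and the 143 genes (coloured). Nlrp genes lie to the upper right with oocyte slopes of 0.34 to 0.96, the Tcl1 family lies near the origin with oocyte slopes of -0.16 to 0.01, and Pramef6 has the highest 2-cell slope of the 143 genes (1.01).

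On the oocyte score all 7 Nlrp genes had a positive slope, from 0.34 (Nlrp9a) to 0.96 (Nlrp4g), as had Oog2, Oog3, Oog4 and Pramef6 (0.35 to 0.68), C87977, C87414 and C87499 (0.53 to 0.68), Nobox (0.61 ± 0.08 SE), Lhx8, Dazl, Eif4e1b and Pabpc1l (0.90 ± 0.07 SE, limma adjusted p = 1.5e-16). Of the 6 Tcl1 family genes none had a positive slope that was called, and Tcl1b3 (-0.15 ± 0.04 SE) and Tcl1b5 (-0.16 ± 0.04 SE) had called negative slopes. The difference between the families was not tested. The highest slopes were those of Gpr1, a chemerin receptor (1.09 ± 0.10 SE, limma adjusted p = 7.72e-14), Nlrp4g (0.96) and Speer5-ps1 (0.92). The 5 negative ones were Rfpl4b (-0.53 ± 0.12 SE), Gstm5, Lmo1, Tcl1b5 and Tcl1b3. Without plate 1 the negative calls were 3, and without a plate term 2.

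On the 2-cell score the highest slopes were those of Pramef6 (1.01 ± 0.09 SE), Nlrp4g (0.78), Trim75 (0.46), Cdo1 (0.45) and Txndc2 (0.45), of which Pramef6 and Nlrp4g were still called with detected genes as a covariate, together with Nlrp9a, AF067061 and LOC100502896. Cdo1 encodes cysteine dioxygenase. Cdo1 had 123, 859 and 1754 TPM in low protein 2-cell embryos and 23.04, 852 and 1470.1 TPM in control 2-cell embryos, and 0, 3.46 and 43.7 TPM in low protein 4-cell embryos and 0, 5.1 and 37.4 TPM in control 4-cell embryos. Cdo1 had 0, 0.73 and 7.49 TPM in low protein morulae and 0, 1.08 and 9.42 TPM in control morulae, and 0, 0.885 and 8.33 TPM in low protein blastocysts and 0, 0 and 15.6 TPM in control blastocysts. Its morula medians were above 0 in both diets. Txndc2 encodes a thioredoxin known from sperm. Txndc2 had 0, 0 and 16.8 TPM in low protein 4-cell embryos and 0, 1.22 and 5.83 TPM in control 4-cell embryos, against 42.1, 185 and 414 TPM in low protein 2-cell embryos and 0, 148 and 337 TPM in control 2-cell embryos. Its medians in morulae and blastocysts were 0 TPM in both diets, with a highest value of 6.04 TPM. The lowest slopes were those of Gstm5 (-0.31 ± 0.07 SE), Smco4 (-0.30), Ifitm3 (-0.28), Tex26 (-0.25) and A630095E13Rik (-0.24), and none of these was called with detected genes as a covariate.

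Gstm5, a glutathione S-transferase, was uneven among 2-cell embryos. Gstm5 had 0, 2.96 and 21.9 TPM in low protein 4-cell embryos and 0, 3.15 and 50.6 TPM in control 4-cell embryos, against 68.1, 360.1 and 1663 TPM in low protein 2-cell embryos and 90.9, 394 and 789 TPM in control 2-cell embryos. Its highest low protein 2-cell value lies far above the median. Smco4 had 0, 0 and 10.1 TPM in low protein 4-cell embryos and 0, 0 and 6.09 TPM in control 4-cell embryos, against 15.6, 99.6 and 526 TPM in low protein 2-cell embryos and 11.7, 130.3 and 442 TPM in control 2-cell embryos. Smco4 encodes a small membrane protein. Ifitm3 had 0, 0 and 12.5 TPM in low protein 4-cell embryos and 0, 0 and 20.8 TPM in control 4-cell embryos, against 92.98, 230.5 and 1047 TPM in low protein 2-cell embryos and 80.8, 263 and 729 TPM in control 2-cell embryos. IFITM3 restricts virus entry into cells. Tex26 had 0, 0 and 12.3 TPM in low protein 4-cell embryos and 0, 0 and 6.08 TPM in control 4-cell embryos, against 10.3, 116 and 404 TPM in low protein 2-cell embryos and 20.4, 117 and 249.9 TPM in control 2-cell embryos. Tex26 is named for expression in testis. A630095E13Rik had 0, 0 and 26.5 TPM in low protein 4-cell embryos and 0, 0 and 17.3 TPM in control 4-cell embryos, against 37.9, 136 and 722 TPM in low protein 2-cell embryos and 31.2, 128 and 849 TPM in control 2-cell embryos. For Gstm5, Smco4, Ifitm3, Tex26 and A630095E13Rik the medians in morulae and blastocysts of both diets were 0 TPM, and the highest value was 18.7 TPM, for Gstm5 in a low protein morula.

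The father's diet, the comparison for which the embryos were made, gave no call among the 143 genes at the 2-cell or 4-cell stage. By limma with plate as covariate 0 of the 143 and 0% of all 11055 genes tested were called higher and 0 and 0% lower in low protein 2-cell embryos, and at an unadjusted p under 0.05 there were 4 of the 143 and 758 of all genes. Of the 143 genes 116 had a positive low protein minus control difference, with a median of 0.10 on the log2 scale, whereas the median over all genes was 0.02. These genes vary together among embryos, so their directions are not independent. How many of all genes had a positive difference was not counted. Control values of the 2-cell and 4-cell stages entered the choice of the genes. Thus 1 side of each diet comparison is not independent of that choice. At the 4-cell stage 0 of the 143 and 0% of 11052 genes were called in either direction, with 6 of the 143 and 573 of all genes at an unadjusted p under 0.05 and a median of -0.03 for the 143 and for all genes. Embryos of 1 sire are not independent, and with sire as a correlated block the counts of calls were also 0. Diet was not tested for these genes at later stages.

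The smallest p-values at the 2-cell stage belonged to 2010002M12Rik, an Ifit-like gene, with a low protein minus control difference of 0.37 ± 0.13 SE on the log2 scale (limma, p = 0.00701, adjusted p = 0.714), to Speer5-ps1 with 0.47 ± 0.22 SE and to AI987944 with 0.25 ± 0.11 SE. 2010002M12Rik had 0, 0.505 and 9.46 TPM in low protein 4-cell embryos and 0, 0 and 8.35 TPM in control 4-cell embryos, against 121, 328 and 623 TPM in low protein 2-cell embryos and 59.9, 270.0 and 614 TPM in control 2-cell embryos. The ranges of the diets overlap almost wholly. Speer5-ps1 had 0, 0 and 20.4 TPM in low protein 4-cell embryos and 0, 0 and 11.4 TPM in control 4-cell embryos, against 44.5, 214 and 411 TPM in low protein 2-cell embryos and 2.23, 167 and 414 TPM in control 2-cell embryos. Both genes had medians of 0 TPM in morulae and blastocysts of both diets, with 10.4 TPM as the highest value, for Speer5-ps1 in a control morula. At the 4-cell stage they were Pnrc1, a nuclear receptor coregulator, with -0.79 ± 0.29 SE (limma, p = 0.00726, adjusted p = 0.927), B020031M17Rik with -0.76 ± 0.31 SE and AA792892 with -0.66 ± 0.29 SE. Pnrc1 had 48.2, 191 and 1615 TPM in low protein 2-cell embryos and 38.8, 171 and 2541 TPM in control 2-cell embryos, and 0, 0.43 and 294 TPM in low protein 4-cell embryos and 0, 3.46 and 25.3 TPM in control 4-cell embryos. Pnrc1 had 0, 0.57 and 10.3 TPM in low protein morulae and 0, 0 and 15.2 TPM in control morulae, and 0, 1.3 and 18.01 TPM in low protein blastocysts and 0, 0 and 18.7 TPM in control blastocysts. The 4-cell mean of Pnrc1 was higher in low protein embryos (9.34 ± 46.3 TPM, SD, n = 40) than in control embryos (5.24 ± 5.79 TPM, n = 42) although the log2 difference is negative. B020031M17Rik had 0, 0 and 13.9 TPM in low protein 4-cell embryos and 0, 0 and 110.2 TPM in control 4-cell embryos, against 87.6, 341 and 2645 TPM in low protein 2-cell embryos and 54.4, 387 and 1545 TPM in control 2-cell embryos. AA792892 had 0, 0 and 38.5 TPM in low protein 4-cell embryos and 0, 2.08 and 26.8 TPM in control 4-cell embryos, against 169, 394 and 898 TPM in low protein 2-cell embryos and 139, 364 and 1113 TPM in control 2-cell embryos. In morulae and blastocysts both had a median of 0 TPM in low protein embryos, and the highest value was 25.6 TPM, for B020031M17Rik in a low protein morula.

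Genes just inside the limits of the choice also fell in the low protein embryos. In these embryos D6Ertd527e (2.12%) and AI987944 (2.20%) had 4-cell means over 2% of the 2-cell mean. The low protein values of the genes just outside the limits are not described. Srgn had 0, 5.24 and 92.4 TPM in low protein 4-cell embryos and 0, 4.08 and 36.9 TPM in control 4-cell embryos, against 95.4, 347 and 1847 TPM in low protein 2-cell embryos and 153, 357 and 1140.4 TPM in control 2-cell embryos. D6Ertd527e had 1.11, 15.4 and 89.4 TPM in low protein 4-cell embryos and 0, 15.9 and 92.5 TPM in control 4-cell embryos, against 333, 1112 and 1793 TPM in low protein 2-cell embryos and 151, 1037 and 2603 TPM in control 2-cell embryos. Srgn encodes serglycin, a proteoglycan core protein. Cd160 had 0, 0.18 and 15.3 TPM in low protein 4-cell embryos and 0, 0.525 and 7.11 TPM in control 4-cell embryos, against 32.7, 107 and 184 TPM in low protein 2-cell embryos and 33.8, 95.2 and 183 TPM in control 2-cell embryos. Scg3 had 0, 0 and 7.82 TPM in low protein 4-cell embryos and 0, 0 and 6.22 TPM in control 4-cell embryos, against 53.1, 100.4 and 149 TPM in low protein 2-cell embryos and 53.95, 95.3 and 238 TPM in control 2-cell embryos. Angptl2 had 0, 0 and 1.65 TPM in low protein 4-cell embryos and 0, 0 and 4.15 TPM in control 4-cell embryos, against 24.9, 109 and 205 TPM in low protein 2-cell embryos and 22.6, 105 and 195 TPM in control 2-cell embryos. In morulae and blastocysts of both diets the medians of Srgn, D6Ertd527e, Cd160, Scg3 and Angptl2 were 0 TPM. Cd160 was at 0 TPM in every morula.

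Control blastocyst replicate 10 held many of the genes, at levels that followed their 2-cell levels. Its median gene was at 0.978% of the control 2-cell mean, and 106 of the 143 genes were at 1 TPM or more. Across the 143 genes its values had a Spearman correlation of 0.657 with the control 2-cell means, which describes 1 embryo over genes that are not independent, and the highest in the other 13 control blastocysts was 0.291. Zbed3 had 964.7 TPM there and at most 9.76 TPM in the others. Spin1 had 474.5 TPM and at most 9.22 TPM, and Wee2 75.3 TPM and 0 TPM. The largest relative value was that of C87977, with 335.8 TPM or 18.6% of its 2-cell mean. The 17 oocyte genes of the score summed to 1302 TPM in this embryo and to at most 25.8 TPM in the others, whereas the 2-cell genes summed to 4.08 TPM, within the range of the others (at most 6.86 TPM). Krt8, a keratin of the blastocyst's outer layer, was at 4466 TPM, inside the 1349 to 9904 TPM of the others, and 9124 genes were detected. The source of these transcripts in this embryo was not tested.

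**Figure D5:**
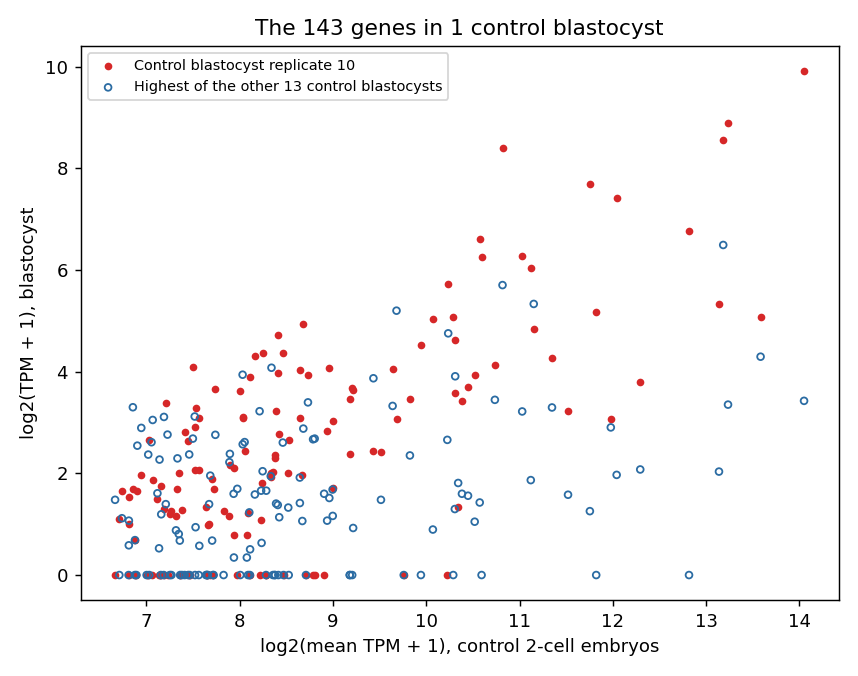
Level of each of the 143 genes as log2(TPM + 1) in control blastocyst replicate 10 (filled) and in the highest of the other 13 control blastocysts (open), against the log2 of the mean TPM + 1 of control 2-cell embryos. The filled points rise with the 2-cell level, up to 964.7 TPM for Zbed3, and 89 genes lie above the open point of the same gene. The share of all genes that do so was not counted.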

How the data were processed

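Single-embryo RNA-seq was deposited by the authors as 1 table of TPM values, with the stage, diet, sire and oocyte donor of each embryo; the plate was read from the sample titles. Reads were aligned with Bowtie to mm10, per the submitters' processing notes; versions and the TPM method are not given in the sources used here. Counts were not used, so depth is unknown. Each fit used log2(TPM + 1) in limma 3.58.1 (R 4.3.3) with trend, robust variances, plate as covariate and Benjamini-Hochberg adjustment over all genes with a value above 0. Stage changes were called at an adjusted p under 0.05 and a log2 change of 1 or more, diet differences and slopes at the adjusted p alone. Named genes were the 15 highest in low protein 2-cell embryos, family lists with 2 or more of the genes, the 5 highest and lowest 2-cell slopes, the 5 most retained, the 3 smallest diet p-values per stage and those at the limits. The genes and lists were chosen with earlier results of these data known. The limma steps were tested on simulated data. Each group in the fits held embryos of more than 1 sire, with many embryos for some sires. The main fits treat each embryo as 1 replicate, so p-values measure the spread between these embryos and not between sires. Symbols that spreadsheet software had turned into dates (15) could not be matched. Promoters are RefSeq windows, transcripts GENCODE vM21. Alternatives were another pseudocount, a filter on low values, quantile normalization, Rn45s left out, plates left out, oocyte donor in place of plate, single diets, detected genes as covariate and sire as a block. Python 3.11.15 ran the other steps.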

Additional observations from a re-analysis of the deposited data

How the results depend on the processing

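All 143 genes remained called lower at the 4-cell, morula and blastocyst stage against the 2-cell stage, and 0 were called by diet, under each alternative run for those counts. With a pseudocount of 0.1, 118 genes were called lower from 4-cell to morula (66 with 1) and 8 from morula to blastocyst (2 with 1); the pseudocount limits how large a change a gene near 0 can show. Without a plate covariate 1 gene was called lower and 4 higher from morula to blastocyst, and 2 were negative on the oocyte score. Leaving out 1 plate at a time gave 1 to 5 lower calls from morula to blastocyst, 2 to 25 negative and 29 to 71 positive calls on the 2-cell score, and 3 to 7 negative calls on the oocyte score. On the 2-cell score quantile normalization gave 10 negative and 41 positive calls, control embryos alone 0 negative and 55 positive, low protein embryos alone 27 negative and 20 positive, and detected genes as covariate 1 negative and 5 positive. Low protein embryos alone gave 2 negative and 58 positive calls on the oocyte score. Shares of all genes were not counted for these alternatives, except with detected genes as covariate. The only embryo under the minimum of detected genes, a control morula, is in none of these fits, so leaving it out could change nothing. The cause of these changes was not tested, and fits of 1 diet or fewer plates also held fewer embryos. The levels without a gene's highest embryo, fits with both scores together, those without the low protein 4-cell embryo of the highest sum, and the other ways of choosing the genes were added after seeing the data. The lack of counts limits what can be said of values near 0.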
